A study of Caenorhabditis elegans with 19 samples.

Results

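The peaks of the transcription factor LIN-14 were examined at 7 genes of Caenorhabditis elegans that carry many of them: dig-1, unc-52, him-4, fig-1, let-805, mup-4 and vab-10. A peak or site was counted for a gene when the gene was the nearest one in the annotated tables, or when the tables placed the peak in one of its exons or introns. By that rule the 7 genes held 56 of 8333 annotated L2 peaks, 143 of 37018 annotated L1 peaks, and 84 of 14675 sites in the comparison of the stages, among 19016 genes named in the tables. The genes were selected on their number of peaks in these lists, so those numbers are given as a description and not as a result.

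LIN-14 was profiled by ChIP-seq in whole larvae of the second larval stage (L2, 21 ± 1 hours on food; 5 ChIP and 4 input libraries) and of the first (L1, 8 ± 1 hours; 5 ChIP and 4 input libraries). All of these larvae carried lin-14(cc2841[lin-14::gfp]), a GFP fusion at the C terminus of LIN-14, and chromatin fixed with 2% formaldehyde was recovered on GFP-binding beads. About 600000 animals went into each replicate, so each value is an average over all cell types of the larva. The untagged control (N2, L1, 1 ChIP library) was not used here, so peaks that might appear without the tag were not set aside. Each stage has 1 peak list, called on merged libraries, so that read depth is unknown, no value per library can be given and peak values carry no replicate error.

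Basement membranes are sheets of secreted matrix on which cells rest and to which they anchor, and in the worm they lie between the body-wall muscles and the epidermis. Force passes from muscle to cuticle through fibrous organelles, the hemidesmosome-like attachments of the epidermis, which join receptors in both of its membranes to intermediate filaments. DIG-1 is a very large secreted protein that keeps neurons and axons in place, UNC-52 is perlecan, HIM-4 is hemicentin, and FIG-1 is a secreted protein of the glia that wrap sensory neurons. LET-805 (myotactin) and MUP-4 are transmembrane proteins of the fibrous organelle. VAB-10 is a spectraplakin that lies inside the cell and ties the organelle to the cytoskeleton, so it is no matrix protein. LIN-14 itself is a nuclear factor of early larval timing, and its protein is known to decline as larvae leave L1.

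The 7 genes did not form a single class by length. In the files' annotation, dig-1 spanned 45.6 kb (chromosome III, 6749083 to 6794698), vab-10 44.7 kb (chromosome I, 11747415 to 11792109), unc-52 37.1 kb (chromosome II, 14647250 to 14684381), him-4 36.2 kb (chromosome X, 9717507 to 9753706) and let-805 23.03 kb (chromosome III, 2658075 to 2681104). By contrast fig-1 spanned 10.8 kb (chromosome V, 10970380 to 10981194) and mup-4 9.43 kb (chromosome III, 7479615 to 7489040). The span runs over all coding transcripts of the gene that the tables name. Coordinates start at 1; no label or header names their genome build. The largest number of exons of any transcript named in the tables was 62 for him-4, 47 for dig-1, 35 for unc-52, 27 for let-805, 24 for vab-10, 21 for fig-1 and 20 for mup-4.

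Among the secreted proteins, dig-1 had 9 L2 peaks and 37 L1 peaks, and that L1 number was the highest of the 18819 genes with an L1 peak. The perlecan gene unc-52 had 5 L2 peaks and 30 L1 peaks, the second most. The hemicentin gene him-4 had 11 L2 peaks and 23 L1 peaks, and fig-1 had 9 L2 peaks and 7 L1 peaks. Of the transmembrane pair, let-805 had 8 L2 peaks and 15 L1 peaks, and mup-4 had 11 L2 peaks and 8 L1 peaks. The spectraplakin gene vab-10 had 3 L2 peaks and 23 L1 peaks. The order of the genes therefore differed between the stages: mup-4 and him-4 shared place 5 among 6415 genes with an L2 peak, tied with others, while in L1 mup-4 was at place 164 and fig-1 at place 257, shared with many other genes. Outside the 7, the genes among the 10 with most L1 peaks were ttn-1 (titin-like, 16 L2 and 26 L1 peaks), K03H6.8 (8 L2 and 22 L1), F43D9.11 (4 L2 and 22 L1), fln-2 (a filamin gene, 4 L2 and 21 L1), F59H5.5 (5 L2 and 20 L1) and F39C12.1 (3 L2 and 18 L1).

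**Figure D1:**
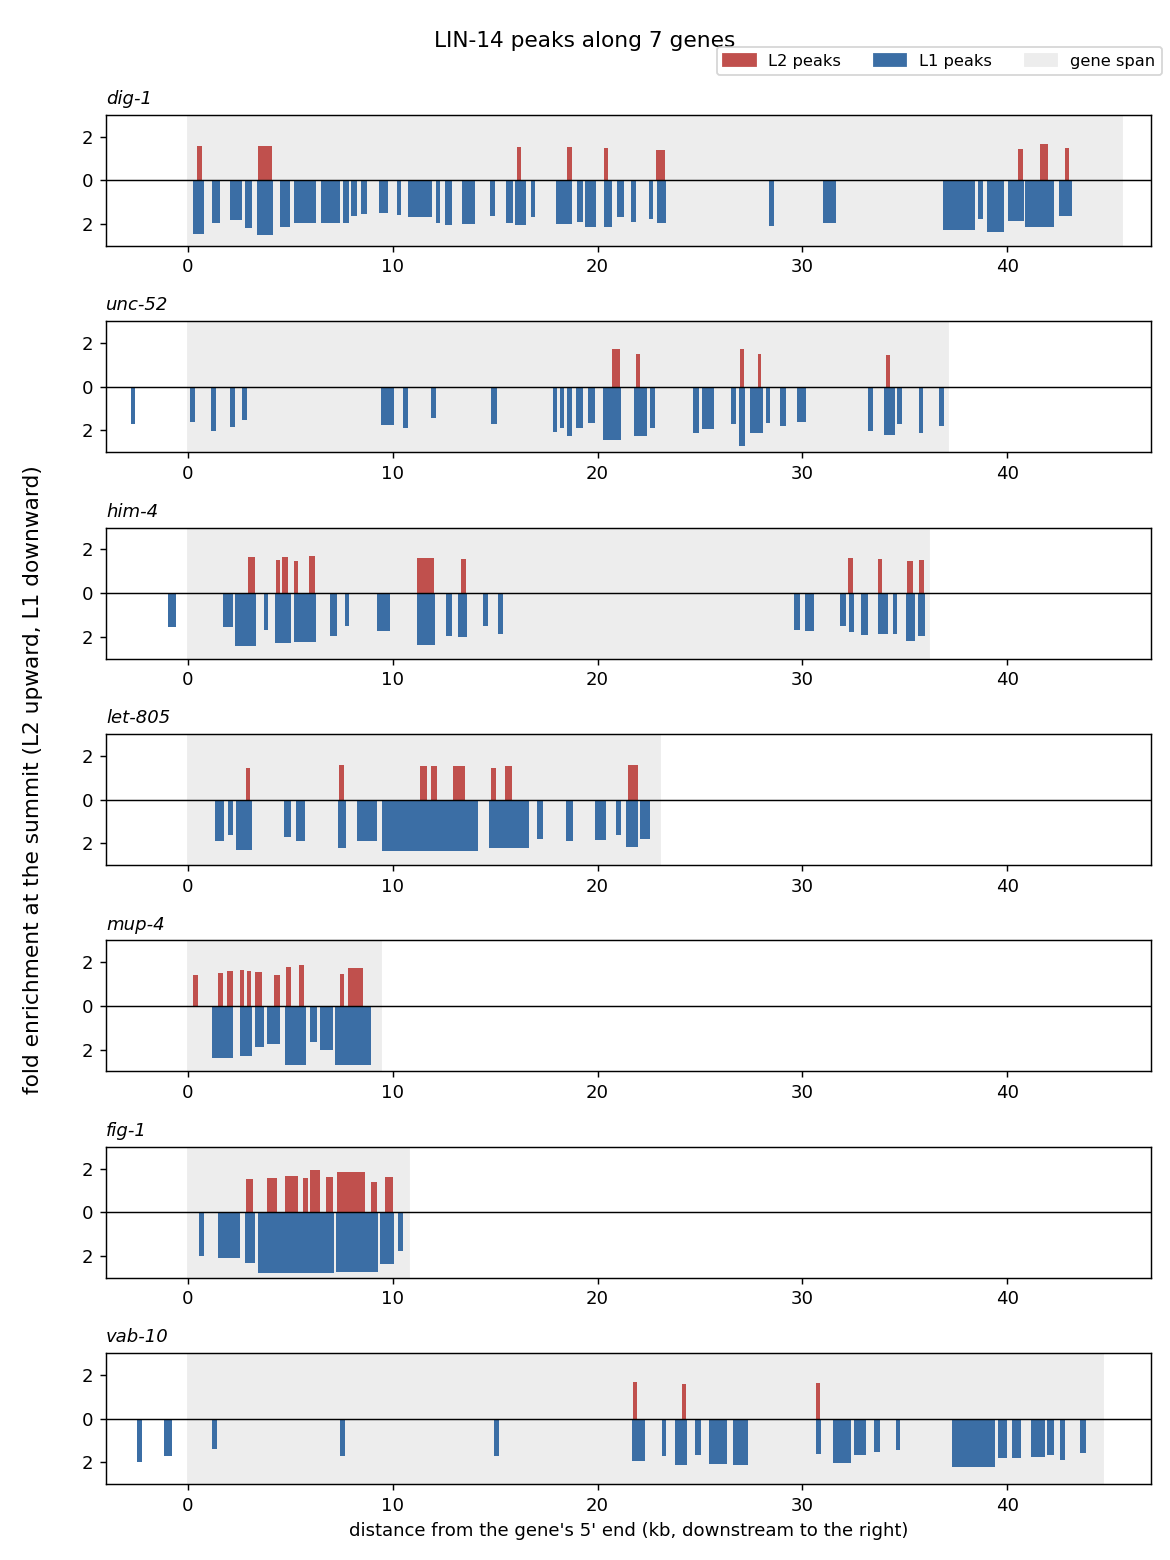
LIN-14 peaks along the 7 genes. The horizontal axis is the distance from the 5' end of the gene in kb, grey marks the gene span, and each bar is 1 peak drawn to its width, with its fold enrichment over control at the summit as height (L2 upward, L1 downward). In fig-1 a single L1 peak of 3693 bp lies opposite 5 L2 peaks, and the first 20.7 kb of unc-52 have L1 peaks but no L2 peak; peaks inside a span that the tables give to another gene are not drawn.

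Within the 7 genes, L1 peak number followed length closely and L2 peak number did not. Over the 7, Spearman's rho of peak number with span was -0.51 in L2 and 0.90 in L1, and with the number of exons 0.04 in L2 and 0.76 in L1. These are descriptions over 7 chosen genes. Over 13935 coding genes with a span, rho of peak number with span was 0.12 in L2 and 0.30 in L1. Peaks per kb went the other way in L1 over the same genes (rho -0.73; -0.04 in L2). Genes with no row in the tables have no span here, and the median gene under 2 kb had 1 L1 peak. Among 976 genes of 5 kb or more with an exon total in the tables, rho of L1 peak number was 0.41 with exons and 0.31 with span, and exons and span had a rho of 0.32. Genes of that kind with more than 20 exons had a median of 6 L1 peaks, against 3 in genes with up to 10 exons. The genes with more exons were also longer, with a median span of 12.8 against 7.84 kb. Their median L1 peaks per kb were 0.518 against 0.364. A gene had an exon total only if a peak or site was placed in an exon or intron, so that genes with many peaks had one more often.

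The L1 peaks of the 7 genes were also denser than in genes of like span, which their choice by peak number favours. In L1, dig-1 had 0.811 peaks per kb, unc-52 0.808, let-805 0.651, him-4 0.635 and vab-10 0.515, against a median of 0.225 in 138 genes of 20 kb or more. The L1 density of dig-1 was 3.6 times that median and the L1 density of vab-10 2.29 times. In L1, mup-4 had 0.849 peaks per kb against a median of 0.38 in 1513 genes of 5 to 10 kb, and fig-1 had 0.647 against 0.282 in 519 genes of 10 to 20 kb. In L2 the shorter genes were denser: mup-4 had 1.17 peaks per kb, fig-1 0.832 and let-805 0.347, each the densest of its span class. In the same list him-4 had 0.304 peaks per kb, whereas dig-1 had 0.197, unc-52 0.135 and vab-10 0.0671. Of the 10 genes with the longest spans, ttn-1 (81.4 kb) had 26 L1 peaks, the cadherin gene hmr-1 (58.9 kb) 14 and the obscurin-like gene unc-89 (55.2 kb) 17. In the same group ucr-2.1 had 3 L1 peaks, the calcium channel gene unc-2 had 5, Y105E8A.25 had 8, M01G5.3 had 1 and hsp-6 had 2, and dig-1 and vab-10 were the remaining pair. The spans of ucr-2.1 (53.2 kb) and hsp-6 (48.1 kb) are as annotated and may be artefacts, which was not checked. Both genes count in the class of 20 kb or more.

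**Figure D2:**
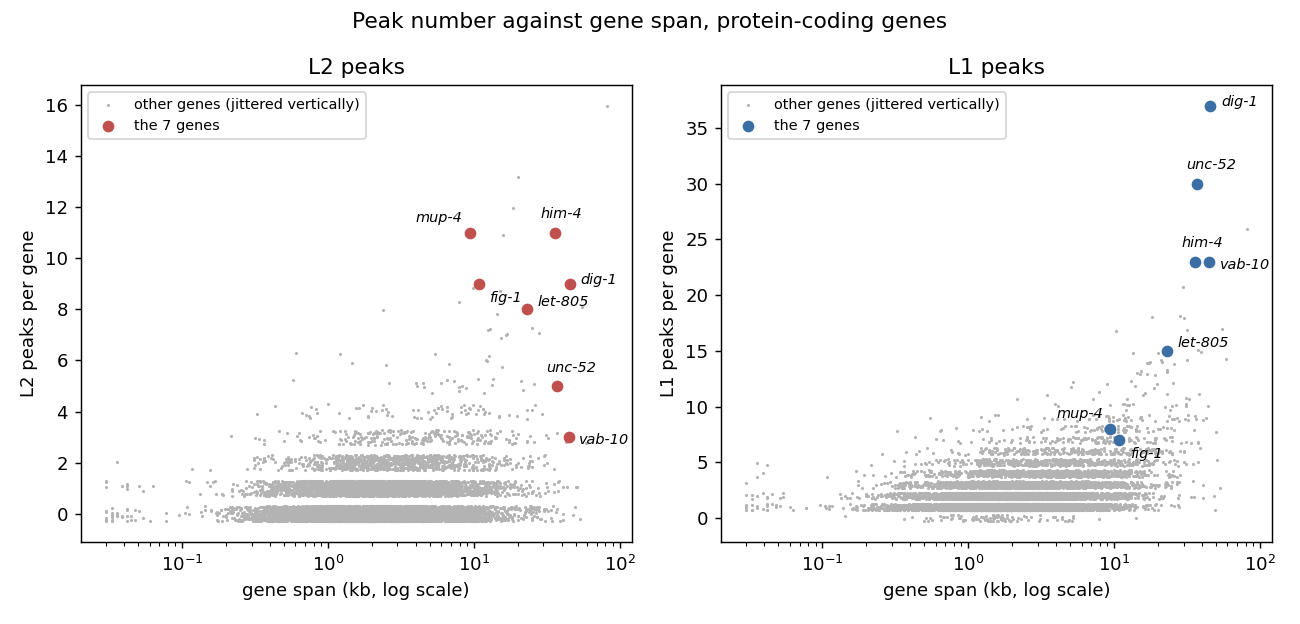
Number of L2 peaks (left) and L1 peaks (right) of each coding gene against its span in kb on a log axis. Coloured points are the 7 genes and grey points the other genes, spread slightly in height. In L1 dig-1 with 37 and unc-52 with 30 peaks stand above all others, while in L2 mup-4 and him-4 share 11 peaks although their spans are 9.43 and 36.2 kb.

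Peaks differed widely in width, so the share of each gene covered by peaks is given beside their number. L2 peaks of any gene covered 43.7% of the fig-1 span and L1 peaks 78.5%. For mup-4 the covered share was 33.1% in L2 and 67.1% in L1, and for let-805 11.6% in L2 and 54.9% in L1. The 4 longest genes were covered less: dig-1 by 6.79% in L2 and 45.9% in L1, him-4 by 11.2% in L2 and 36.9% in L1, unc-52 by 3.17% in L2 and 32.2% in L1, and vab-10 by 1.84% in L2 and 28.1% in L1. In genes of 20 kb or more the median covered share was 1.61% in L2 and 12.4% in L1, and let-805 had the highest L1 share of these 138 genes. In genes of 10 to 20 kb the medians were 1.89% in L2 and 13.2% in L1, and fig-1 was first in L2 and second in L1 among 519 genes. The medians of genes of 5 to 10 kb were 2.27% in L2 and 17.5% in L1, with mup-4 at place 9 in L2 and place 14 in L1 of 1513.

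Both genes with more L2 than L1 peaks, mup-4 and fig-1, had fewer covered bases in L2. At fig-1, L2 peaks covered 4728 bp and L1 peaks 8490 bp, and at mup-4 they covered 3123 bp in L2 and 6325 bp in L1. The widest fig-1 peak of L1 (10974081 to 10977773) held 5 L2 peaks, and 4 L1 peaks of mup-4 held 2 L2 peaks each. The widest L1 peak of the 7 genes lay in exon 16 of 25 of let-805 (2667525 to 2672233, 4709 bp) and held 3 L2 peaks. Among the 143 L1 peaks, 15 were 1000 bp or wider (10.5%), against 2.43% of all L1 peaks. Taking all 1195 genes with 5 or more L1 peaks, 10 had more L2 than L1 peaks. Beside mup-4 and fig-1 these included lam-3, a laminin alpha gene (7 L2 and 6 L1 peaks), and unc-22, the twitchin gene (12 L2 and 7 L1). The L2 covered bases came to 55.7% of the L1 bases at fig-1, 49.4% at mup-4, 30.4% at him-4, 21.2% at let-805, 14.8% at dig-1, 9.83% at unc-52 and 6.55% at vab-10, against 18.7% over all genes with a span.

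**Figure D3:**
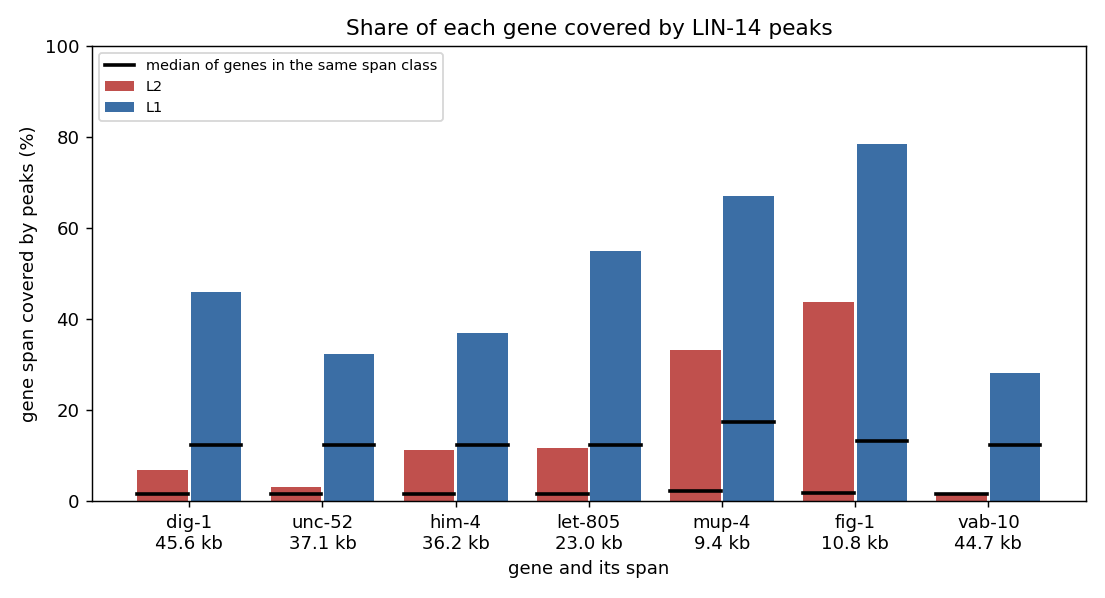
Share of each gene span covered by L2 peaks (red, left bar) and L1 peaks (blue, right bar), in percent, with the span under each gene. Black lines are the median of coding genes in the same span class. The shorter mup-4 and fig-1 are covered by 33.1% and 43.7% in L2, and vab-10 by 1.84%.

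Pooled over these genes, most peaks were annotated to exons, but in L1 this did not hold at each gene. The rule itself takes in peaks placed in their exons, so this share is partly fixed by it, and it was 45.6% for the L1 peaks assigned by gene name alone. Exons held 35 of the 56 L2 peaks (62.5%, 95% exact binomial interval 48.5 to 75.1) and 79 of the 143 L1 peaks (55.2%, 46.7 to 63.6). Exon-class L1 peaks numbered 33 of 37 at dig-1, 7 of 30 at unc-52 and 0 of 7 at fig-1. They numbered 13 of 23 at him-4 and at vab-10, 7 of 15 at let-805 and 6 of 8 at mup-4. Over all peaks the exon share was 9.19% in L2 and 6.57% in L1. The intervals cover counting error only, and peaks of 1 gene are not independent. With 7 genes of 19016, they supplied 35 of 766 exon-class L2 peaks and 79 of 2432 exon-class L1 peaks. The tables give the promoter class first, to any peak within 3 kb of a transcript start on either side, and every exon-class peak lay at least 3001 bp from the nearest start. Peaks in exons near a start are thus not counted as exonic: all 7 L1 peaks of fig-1 were promoter-class, while 4 of the L2 peaks inside its widest L1 peak were exon-class. Short genes therefore have little room for exon-class peaks, and 6673 of 13935 coding genes with a span were under 2 kb. The exon shares over all peaks are thus not shares at like span, which were not computed. A peak that touches an exon counts as exonic wherever its summit lies. Introns held 0 of the 56 L2 peaks, which allows a share of up to 6.38% (exact upper bound). They held 3 of the 143 L1 peaks (95% exact interval 0.435 to 6.01%), all in unc-52. Over all peaks introns held 117 of 8333 in L2 (1.404%) and 609 of 37018 in L1 (1.645%). These shares lie within the limits for the 7 genes, so no lack of intronic peaks is read from the counts.

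The secreted giant dig-1 showed a chain of exonic peaks. Of its L1 peaks 33 were in exons, in 21 different exons of 47, and of its L2 peaks 8, in 7 exons. Exons 17 and 38 held 4 L1 peaks each and exon 31 held 3. Counted in 3 equal parts from the 5' end, dig-1 had 2, 4 and 3 L2 peaks and 18, 12 and 7 L1 peaks. Towards its 3' end a further 1 L2 and 2 L1 peaks inside the span were assigned to R05H11.1. The longest stretch without a peak was 17.2 kb in L2 (6772366 to 6789600) and 5.26 kb in L1. Within that L2 stretch lay 5 L1 peaks, all exonic. The highest L2 peak of dig-1 was in exon 38 (6790684 to 6791093), where enrichment over control reached 1.67-fold, and the highest L1 peak in exon 13 (6752436 to 6753245), with 2.52. The peak at the dig-1 start had 1.58 in L2 and 2.47 in L1. Fold enrichments are the authors' own and rank peaks within 1 stage.

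The perlecan gene unc-52 had its L2 peaks in its 3' part. The 20.7 kb from its 5' end (14663701 to 14684381) held no L2 peak and 13 L1 peaks of unc-52, and a further 6 L1 peaks inside the gene were assigned to its neighbour hhat-1. The highest L1 peak lay in exon 18 of 35 (14657176 to 14657467; fold enrichment 2.74), at rank 133 of the whole L1 list. An L2 peak at the same exon had 1.71, close to the highest L2 value of the gene, 1.72 in exon 30 (14663282 to 14663700). Exon numbers in the tables rise with the coordinate on both strands (578 of 578 neighbouring pairs on the minus strand), so that exon 30 of this minus-strand gene is exon 6 from its 5' end. At the 5' end itself an L1 peak stood 109 bp inside the gene with a fold enrichment of 1.62.

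The hemicentin gene him-4 had its L2 peaks towards both ends, with a longest L2 stretch without a peak of 13.4 kb (9731062 to 9744444) against 3.03 kb in L1. Counted by the peaks assigned to it, 3 equal parts from the 5' end held 6, 1 and 4 L2 peaks and 9, 4 and 9 L1 peaks. Inside the him-4 span, 2 L2 and 7 L1 peaks between 9733908 and 9746370 were assigned to F15G9.5, F15G9.7, F15G9.8 and F15G9.9. The highest L2 peak lay in exon 11 of 62 (9723417 to 9723710; 1.70), and the highest L1 peak between 1 and 2 kb from a transcript start (9719809 to 9720834; 2.44). All 11 L2 peaks overlapped an L1 peak.

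The small gene fig-1 held some of the stronger peaks of the L2 list. Its highest L2 peak, with a fold enrichment of 1.94 and rank 26 of 8333, lay in exon 9 of 21 (10974732 to 10975223). The highest L1 peak, with 2.76 and rank 118 of 37018, was the broad one over the same stretch. The summits lay 6102 bp (L2) and 6105 bp (L1) from the 5' end, within a few bases of each other. A second broad L1 peak (10971906 to 10973975; 2.72) stood over an L2 peak of 1369 bp with 1.85.

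Among the transmembrane genes, the myotactin gene let-805 had 4 of its 8 L2 peaks in exon 16 of 25, the exon of its broad L1 peak, with fold enrichments of 1.42 to 1.56 there. Its highest L2 peak lay in exon 24 of 27 (2679585 to 2680035; 1.59), and its highest L1 peak was the broad one (2.36). No peak assigned to let-805 in either stage lay within 1 kb of its 5' end. At mup-4 the strongest L2 peak, with 1.89 and rank 59, lay in exon 9 of 20 (7483364 to 7483618), which is exon 12 from the 5' end. A pair of L1 peaks shared the highest value of 2.72, one over that exon (7483278 to 7484307) and one at the 3' end (7480100 to 7481881). The only L2 peak of the 56 that overlapped no L1 peak was at the start of mup-4 (7488567 to 7488774), the lowest of that gene's L2 peaks by fold enrichment. No L1 peak assigned to mup-4 lay within 1 kb of that start.

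At the spectraplakin gene vab-10 the L1 peaks thinned out towards the 5' end. Counted from there by the peaks assigned to it, 3 equal parts held 0, 2 and 1 L2 peaks and 2, 7 and 12 L1 peaks, with 2 more L1 peaks before the start. Inside the vab-10 span, a further 1 L2 and 3 L1 peaks between 11774157 and 11776827 were assigned to ZK1151.4. The long exon at the low-coordinate end of a long transcript, numbered 1 of 17 and thus the last one from the 5' end, held 2 L2 peaks and 5 L1 peaks. The highest L2 peak was one of these (11770180 to 11770359; 1.67), and the highest L1 peak lay in exon 8 of 12 of a shorter transcript (11752702 to 11754785; 2.19). Its L1 median of 1.71 was the lowest of the 7 genes, and that of fig-1, 2.33, the highest.

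The median fold enrichment of the 7 genes' peaks was 1.56 in L2 and 1.91 in L1, against 1.54 in L2 and 1.81 in L1 over all peaks. A fold enrichment of 2 or more was reached by 35.7% of their L1 peaks (95% exact interval 27.8 to 44.1), against 24.7% of all L1 peaks. In L1 the median was 1.93 in 79 exonic peaks of these genes and 1.90 in 24 peaks within 1 kb of a start. The highest L1 peak lay more than 1 kb from any transcript start at each of the 7 genes.

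An L2 peak overlapped 41 of the 143 L1 peaks (28.7%, 95% exact interval 21.4 to 36.8), against 20.9% of all L1 peaks. Member L1 peaks were wider than all L1 peaks (median 358 against 292 bp), which gives an overlap of 1 bp more room. Shares at like width were not computed, and peaks of 1 gene are not independent. Split by strength, 31 of 51 member peaks at a fold enrichment of 2 or more were shared (60.8%, 46.1 to 74.2), against 48.6% of all such L1 peaks, and 10 of 92 weaker ones (10.9%, 5.34 to 19.1), against 11.8%. By gene the shared L1 peaks numbered 9 of 37 at dig-1, 5 of 30 at unc-52, 9 of 23 at him-4, 4 of 7 at fig-1, 5 of 15 at let-805, 6 of 8 at mup-4 and 3 of 23 at vab-10. In the other direction 55 of 56 L2 peaks overlapped an L1 peak, against 97.8% of all L2 peaks. The median distance from an L2 summit to the nearest L1 summit was 58 bp, against 45 bp over all L2 peaks, and 25 of the 56 lay within 50 bp (44.6%), against 53.2% of all L2 peaks. By gene it was 41 bp at him-4, 44 bp at mup-4, 383 bp at fig-1 and 481 bp at let-805, and each of these 4 genes had L1 peaks that held several L2 peaks.

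The comparison of L2 with L1 asked at which sites occupancy changed. In the authors' deposited table all 84 sites of the 7 genes had a log2 fold below 0, as did 14638 of all 14675. Of the 84, 45 were lower in L2 at a false discovery rate (FDR) below 0.05, where 41.4% of all listed sites were. At that FDR 0 were raised in L2, against 0.123% of all listed sites. The authors' deposited table gave 70 lowered member sites at an FDR below 0.1 (67.9% of all listed sites) and 0 at an FDR below 0.01 (1.8%). The member share in the authors' deposited table was 53.6% (95% exact interval 42.4 to 64.5), and for their exon-class sites 57.7% (30 of 52), against 47.3% of all listed exon-class sites. Sites of 1 gene are not independent, and the listing stops at an FDR of 0.3. The median log2 fold of the 84 sites in the authors' deposited table was -0.49 (range -0.78 to -0.23), an L2 occupancy of 71.2% of L1, against -0.44 (interquartile range -0.55 to -0.35) over all listed sites. The difference between these medians was not tested. By the authors' deposited table each of the 7 genes had at least 1 lowered site, as did 49.4% of genes with a listed site. The 7 genes have 6 to 25 listed sites each, against 14675 sites over 10004 genes in all, so nothing is read from that count.

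**Figure D4:**
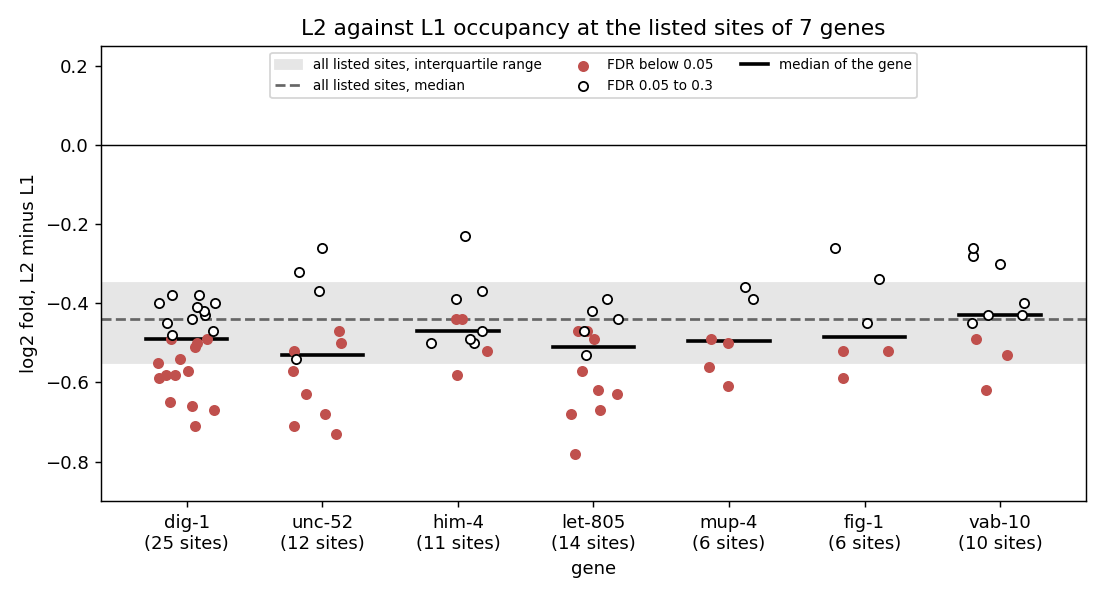
Log2 fold of occupancy, L2 minus L1, at each listed site of the 7 genes, from the authors' deposited table. Red points have an FDR below 0.05 and open points an FDR between 0.05 and 0.3; black lines are the median of each gene, and the grey band and dashed line are the interquartile range and median of all 14675 listed sites. Every point lies below 0, as do 14638 of the 14675 listed sites. The medians of the genes run from -0.53 at unc-52 to -0.43 at vab-10.

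By gene, sites lowered in the authors' deposited table numbered 14 of 25 at dig-1, 8 of 12 at unc-52, 4 of 11 at him-4, 3 of 6 at fig-1, 9 of 14 at let-805, 4 of 6 at mup-4 and 3 of 10 at vab-10. At dig-1 the largest drop in the authors' deposited table was in exon 29 (6769388 to 6769779), with a log2 concentration of 5.56 in L2 and 6.27 in L1 (log2 fold -0.71, FDR 0.0114). The start of dig-1 was lowered too in the authors' deposited table, with 6.09 in L2 and 6.63 in L1 (-0.54, FDR 0.0211). The stretch of dig-1 without L2 peaks held 5 listed sites, of which 4 were lowered in the authors' deposited table.

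At unc-52 the site of lowest FDR in the authors' deposited table was in exon 21 of 35 (14658656 to 14659245), with 5.96 in L2 and 6.68 in L1 (-0.71, FDR 0.0101). The site at its highest L1 peak was lowered in the authors' deposited table, with 5.38 in L2 and 6.11 in L1 (-0.73, FDR 0.0138), as was the single intronic site of the 7 genes, in intron 11 of 33 (14674446 to 14674873; 5.56 in L2 and 6.03 in L1; -0.47, FDR 0.0398). An L2 peak overlapped the site at the highest L1 peak, and none overlapped the intronic site or the one in exon 21. At him-4 the largest drop in the authors' deposited table was in exon 10 (9723107 to 9723773), with 6.43 in L2 and 7.0 in L1 (-0.58, FDR 0.0212). Of the him-4 sites in the authors' deposited table the one nearest to the 3' end (9753227 to 9753516) had the smallest difference, with 5.59 in L2 and 5.82 in L1 (-0.23, FDR 0.299).

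The widest of the 84 sites in the authors' deposited table was in fig-1 (10974038 to 10977472; 3435 bp), with 8.70 in L2 and 9.29 in L1 (-0.59, FDR 0.0195). Its neighbour over the second broad L1 peak missed the FDR of 0.05 in the authors' deposited table, with 8.14 in L2 and 8.59 in L1 (-0.45, FDR 0.0702). The largest drop of all 84 sites in the authors' deposited table was in exon 14 of 25 of let-805 (2665415 to 2665764), with 5.50 in L2 and 6.28 in L1 (-0.78, FDR 0.0114). The 4 sites inside the broad let-805 peak of exon 16 had log2 folds of -0.67, -0.57, -0.47 and -0.63 in the authors' deposited table and all passed. Sites differ in width and their concentrations were not set per length, so levels are not compared between sites.

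At mup-4 the site of lowest FDR in the authors' deposited table lay in exon 9 (7483319 to 7484291), with 6.94 in L2 and 7.55 in L1 (-0.61, FDR 0.0142). The site at the 3' end of mup-4 missed the FDR of 0.05 in the authors' deposited table, with 7.74 in L2 and 8.11 in L1 (-0.36, FDR 0.103). The vab-10 site of lowest FDR in the authors' deposited table lay in exon 7 of 12 (11751566 to 11751855), with 5.04 in L2 and 5.66 in L1 (-0.62, FDR 0.0263). A site in the long vab-10 exon numbered 1 of 17 was lowered in the authors' deposited table, with 6.34 in L2 and 6.87 in L1 (-0.53, FDR 0.0296; 11769813 to 11770428). That exon is the last of its transcript, but exons of a shorter transcript lie further towards the 3' end of the gene. A site within 1 kb of a transcript start (11760046 to 11760612) missed the FDR of 0.05 (6.03 in L2 and 6.29 in L1; -0.26, FDR 0.224).

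Other genes of the basement membrane and of muscle-to-cuticle attachment were looked at as a list of 40, which leaves out the 7. In this list 19 genes had an L2 peak and 33 an L1 peak, where 25.1% of coding genes had an L2 peak and 69.6% an L1 peak. The genes with most L1 peaks were pat-12, a fibrous organelle component (2 L2 and 12 L1 peaks), mua-3, which encodes a transmembrane protein of the fibrous organelle (11 L2 and 11 L1), and the teneurin gene ten-1 (4 L2 and 10 L1). Of the 74 sites of the list in the authors' deposited table, 33 were lowered (44.6%) and 0 raised, with a median log2 fold of -0.45, close to all listed sites. The lowered sites of lowest FDR in the authors' deposited table were at the intermediate filament gene ifa-3 (5.27 in L2 and 6.07 in L1; -0.80, FDR 0.0085), the laminin alpha gene epi-1 (7.44 in L2 and 8.07 in L1; -0.64, FDR 0.0139) and the integrin alpha gene ina-1 (6.13 in L2 and 6.67 in L1; -0.54, FDR 0.0168). Next in the authors' deposited table came the papilin gene mig-6 (7.40 in L2 and 8.06 in L1; -0.67, FDR 0.0172) and the kindlin gene unc-112 (5.62 in L2 and 6.26 in L1; -0.63, FDR 0.0189).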

How the data were processed

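The submitters' processing notes list MACS2, ChIPseeker, BWA, DiffBind and SAMtools without versions, and neither build nor normalization is stated. Peak names in the files say that a stage's libraries were merged, without outliers. The deposited peak lists give a score, a fold enrichment ratio and a -log10 q-value per peak. The authors' deposited table gives log2 concentrations, the log2 fold (L2 minus L1) and a p-value with its FDR.

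From these, peaks and sites were counted by gene name or bracketed gene, for all genes alike. Spans join the coding transcripts of a gene in the tables (at most 100 kb; 13935 genes). Peaks overlapped at 1 bp or more. Exact binomial intervals have a level of 95% and cover counting error only. The only test used is the authors' FDR. Nothing in the labels says that replicates were separate cultures, so it measures spread between libraries, which may be technical. RefSeq gene names (WBcel235) matched 99.5% of annotated L1 peaks. Named were the 7 genes, their highest and start-nearest peaks, their sites, and the top genes of the list, of L1 peak number and of span. The members and lists were chosen with earlier results of these data known. Overlap and coverage were tested on simulated data. Alternatives were stricter q-values, other FDR limits, another overlap, assignment by name alone, and centring on the median fold. Calculations used pandas 2.3.3, SciPy 1.17.1 and NumPy 2.4.6 in Python 3.11.15, and plots matplotlib 3.10.9.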

Additional observations from a re-analysis of the deposited data

How the results depend on the processing

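Counts of weak peaks depended on the threshold: with a -log10 q of 10 or more the 7 genes kept 0 of their L2 peaks and 55 of their L1 peaks, and with 5 or more 15 and 120. The shares of all L2 and L1 peaks past these limits were not computed. Nothing particular to the 7 genes is therefore read from these counts. Assignment by gene name alone gave 47 L2 and 114 L1 peaks and an exon share of L1 peaks of 45.6%. Counting every peak that touches the span, an alternative chosen after seeing the data, gave 60 and 157. The share of the 7 genes' L1 peaks with an L2 peak was 9.79% at a reciprocal overlap of 50%. It was 10.0% with a -log10 q of 5 or more in both stages. The shares of all L1 peaks at these settings were not computed, so no contrast with all peaks is read there. The number of member sites lowered in the authors' deposited table was 0 at an FDR below 0.01 (1.8% of all listed sites), 70 at an FDR below 0.1 (67.9%) and 69 at an unadjusted p under 0.05. The share of all listed sites at that unadjusted p was not computed, so nothing is read from the last count. Relative to the median of all listed sites, the median log2 fold of the 84 sites in the authors' deposited table was -0.05. Of the 45 lowered sites, 43 lay below the median of all listed sites. Passing the FDR itself favours larger drops, so nothing is read from that count. In the matrix list 59 sites were lowered at an FDR below 0.1 and 1 below 0.01 in the authors' deposited table, both chosen after seeing the data. Spans from the RefSeq table were not tried, since its build is not known to be that of the files. Without values per library no library could be left out. No paired analysis was possible because the files hold merged peaks and 1 comparison, with no value per replicate.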
